A study of Lactuca sativa with 12 samples.

Results

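The genes described here encode antenna proteins, photosystem subunits and the small subunit of Rubisco in lettuce (Lactuca sativa) leaves. They are the 31 genes, of 2264 listed in 6 deposited tables of pairwise comparisons, whose RefSeq name holds 1 of 8 word patterns. Of these names 21 hold "chlorophyll a-b binding", 6 "photosystem", 3 "ribulose bisphosphate carboxylase" and 1 "oxygen-evolving". The patterns "light-harvesting", "ferredoxin", "cytochrome b6" and "early light-induced" matched 0 listed genes. By the KEGG orthologs that the tables give, the 31 genes comprise 13 of the trimeric LHCII antenna, 4 of the minor antenna of photosystem II, 5 of the LHCI antenna of photosystem I, 5 of photosystem I itself, 1 of the oxygen-evolving complex and 3 of the Rubisco small subunit. RNA of red oak-leaf lettuce leaves, from plants in hydroponics, was sequenced in 4 groups of 3 libraries. CdSeNP received 10 mg/L cadmium together with 3 mg/L biosynthesised selenium nanoparticles, Cd received 10 mg/L cadmium alone, SeNP received 3 mg/L nanoparticles alone, and CK was untreated. All plants grew under 16 h of light at 400 µmol m-2 s-1 and 8 h of darkness, and whole leaves were taken at the 6-leaf stage, at 1.5 months. The cadmium dose is labelled both as cadmium and as a cadmium chloride, so the amount of metal is uncertain. Replicates are described as biological, and 1 batch label covers all 12 libraries.

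Chlorophyll a-b binding proteins hold the pigments that collect light and pass its energy to the reaction centres of photosystem I and photosystem II. LHCII trimers and the minor antenna proteins serve photosystem II, where the oxygen-evolving complex splits water, and the LHCI proteins form a belt around photosystem I. Rubisco fixes carbon dioxide with a large subunit encoded in the chloroplast and a small subunit encoded in the nucleus. Proteins of these nuclear genes are imported into the chloroplast, and the main genes of each complex are typically highly expressed in the green cells of a leaf.

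The level of a gene is given in FPKM, the fragments divided by gene length and by the total reads of the library, as the authors deposited it. Library totals lay between 23.3 and 31.4 M reads. Genes of leaf photosynthesis were among the most abundant listed, up to 3386 FPKM in CK for a photosystem I subunit, which is the check of the leaf label. In whole leaves, fewer green cells and less RNA per green cell cannot be told apart. Markers of dividing cells matched 83 listed genes. Of these, 80 were called higher in Cd against CK (3.47% of all genes tested there) by the authors. The number called higher was 57 in SeNP against CK (1.24%) and 17 in CdSeNP against CK (1.25%). These genes and the guard-cell genes below were matched among called genes only, so nothing is read from their counts. For 16 of the dividing-cell genes values exist in all libraries, none of them at 0. Their sums were 142 to 178 FPKM in CdSeNP, 215 to 287 in Cd, 186 to 199 in SeNP and 38.5 to 109.6 in CK. These sums, and the epidermis sums that follow, describe chosen genes only. The 7 epidermis and cuticle genes with values in all libraries, of 22 listed, summed to 67.0 to 89.4 FPKM in CdSeNP, 139 to 238 in Cd, 103 to 124 in SeNP and 104 to 112 in CK. Guard-cell words matched 4 listed genes. Against CK, 4 were called higher in Cd (3.47% of all genes tested), 2 in SeNP (1.24%) and 1 in CdSeNP (1.25%). Only 1 of the 4 had values in all libraries. This gene had 15.7 to 16.4 FPKM in CdSeNP and 17.8 to 19.7 in Cd, and was listed at 0 in SeNP and CK. It was matched by name alone, so it need not mark guard cells. The part of any of these in the results below was not tested. Among the controls CK 2 stood apart in the dividing-cell sum, at 109.6 FPKM against 43.5 in CK 1 and 38.5 in CK 3. Over the photosynthesis genes it lay closer to the others: on a scale where the Cd mean is 1 and the average of CK 1 with CK 3 is 0, its median place over 27 genes was 0.107 (quartiles 0.038 and 0.131). Without CK 2, edgeR refits gave 25 genes lower in Cd against CK and 27 lower in CdSeNP against CK.

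The 31 listed photosynthesis genes were lower in leaves that received cadmium, with or without nanoparticles, than in leaves that did not. They were chosen from lists of such differences, so this does not describe photosynthesis genes that were not listed. The authors called 26 of the 31 lower in Cd against CK, where 1.39% of 23049 genes tested were called lower. They called 26 lower in CdSeNP against CK (1.33% of 22856 genes) and 26 lower in CdSeNP against SeNP (0.625% of 22862 genes). In SeNP against Cd they called 27 higher (0.67% of 22978 genes). Called means an adjusted p under 0.05 with DESeq2 and an absolute log2 fold change over 1. Because the genes were taken from lists of called genes, these counts follow from the choice and nothing is read from them, and the comparisons share libraries. In each of the 31 genes the highest library with cadmium lay below the lowest library without it, as the plot of levels by library shows, but 6 of them lack values in 1 or 2 of the groups. The same held for 15.9% of the 2064 listed genes with values on both sides and for 14.8% of the 575 with values in all 12 libraries. The genes were listed for differences between these same groups, so nothing is read from that count either. The median log2 fold change of the called photosynthesis genes was -1.29 in Cd against CK, -1.33 in CdSeNP against CK, -1.42 in CdSeNP against SeNP and 1.31 in SeNP against Cd. All genes listed in the same direction had medians of -1.25, -1.30, -1.30 and 1.28 in the same order of comparisons. Scaling to library totals in place of the authors' size factors moves every log2 value by 0.119 in Cd against CK, 0.088 in CdSeNP against CK, 0.044 in CdSeNP against SeNP and -0.101 in SeNP against Cd. On that scale 22, 21 and 25 genes were lower and 23 were higher past the same limits, and no direction turned.

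**Figure D1:**
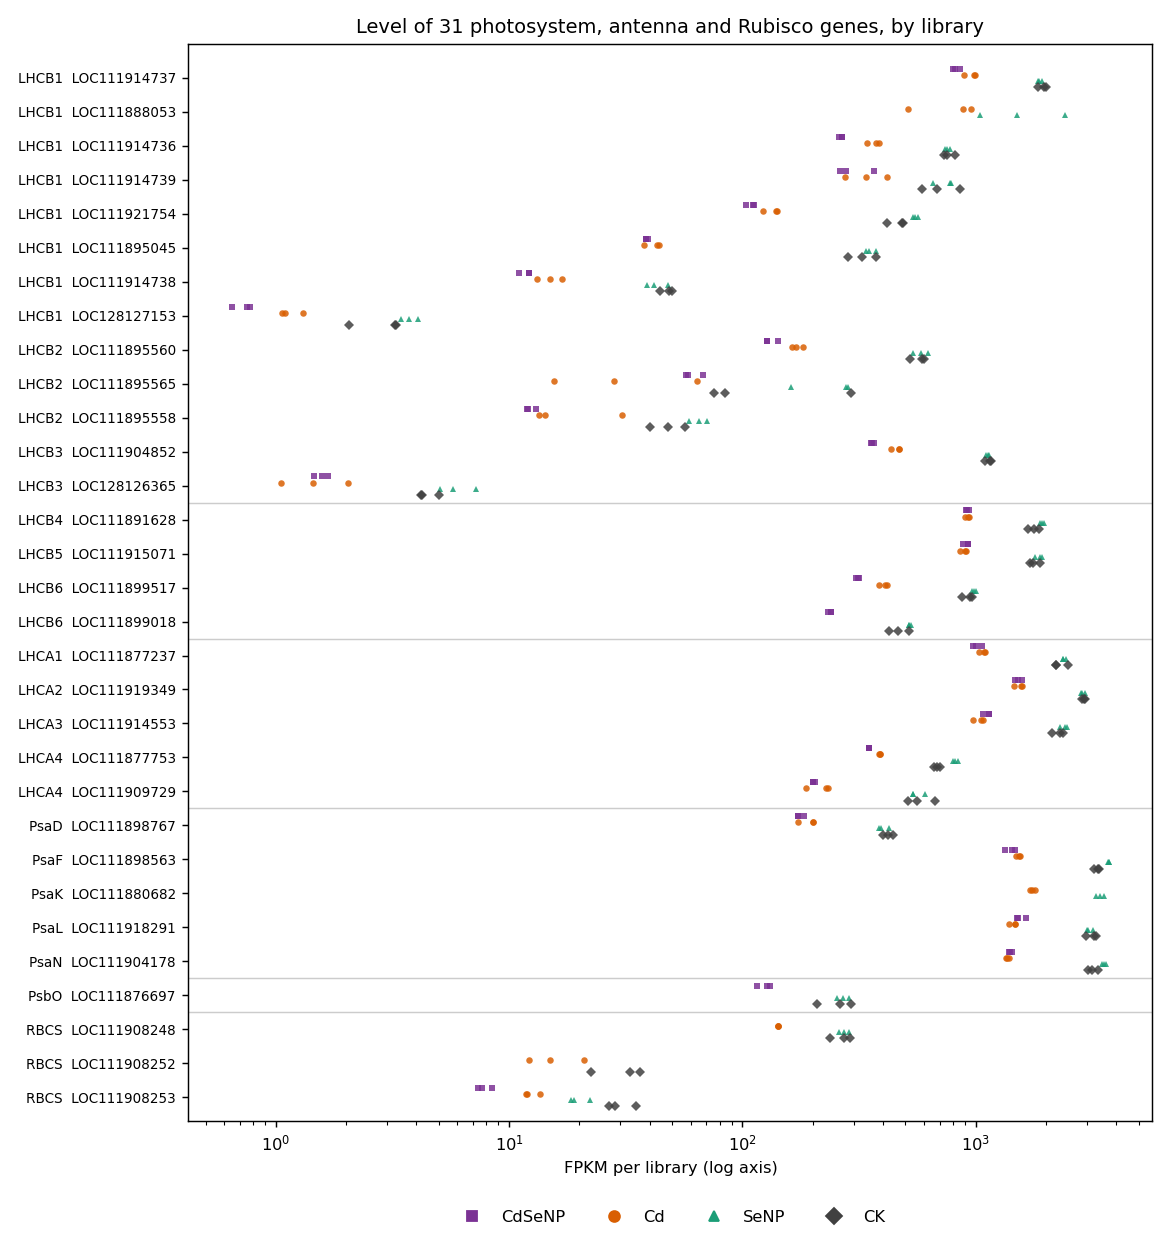
Level of each of the 31 genes in every library, in FPKM on a log axis, with 1 row per gene and grey lines between complexes. Squares are CdSeNP, circles Cd, triangles SeNP and diamonds CK, and a group without values for a gene is not drawn. In each row the drawn libraries with cadmium lie to the left of those without it, in genes listed for differences between these groups, against 15.9% of all listed genes with values on both sides.

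LHCII carries most of the chlorophyll of photosystem II, and its commonest protein, LHCB1, is encoded by 8 of the genes. The most abundant LHCB1 gene in CK, LOC111914737 (chromosome 4, 47180363 to 47181320, minus strand), had 860.3, 815 and 798 FPKM in CdSeNP, 996, 889.9 and 984 in Cd, 1929, 1856 and 1865 in SeNP and 2000.2, 1841 and 1953 in CK. Its neighbour LOC111914736 (chromosome 4, 47194437 to 47195385, minus strand) had 259, 268 and 268 FPKM in CdSeNP, 384, 341 and 375 in Cd, 752, 772 and 735 in SeNP and 754, 733 and 818 in CK. In both genes the CdSeNP libraries were lowest, the Cd libraries stood just above them without overlap, and SeNP and CK overlapped at the top. The authors' deposited tables give LOC111914737 a log2 fold change of -1.32 in CdSeNP against CK and -1.13 in Cd against CK, with adjusted p-values of 1.2e-52 and 7.8e-36 (DESeq2). For LOC111914736 they give -1.62 in CdSeNP against CK and -1.19 in Cd against CK, with adjusted p-values of 5.5e-78 and 6e-35 (DESeq2). These comparisons share the CK libraries, as do all such pairs below. The call of LOC111914737 in SeNP against Cd (log2 fold change 1.08) ended with library totals as scaling.

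The LHCB1 gene that changed most was LOC111895045 on chromosome 1, with 39.4, 38.7 and 38.6 FPKM in CdSeNP, 43.9, 37.8 and 42.9 in Cd, 374, 340.1 and 349.5 in SeNP and 324, 284 and 374 in CK. Both groups with cadmium lay between 37.8 and 43.9 FPKM with overlapping libraries, and both groups without it between 284 and 374 FPKM. The authors' deposited tables put it 9.41-fold lower in CdSeNP against SeNP and 8.97-fold lower in CdSeNP against CK, with adjusted p-values listed as 0 and 3e-138 (DESeq2). In the fit over all 4 groups its level in CdSeNP was 96.5% of that in Cd, with a 95% interval of 81.7% to 114%. LOC111921754 (chromosome 2, 198100280 to 198101210, plus strand) had 112, 111 and 103 FPKM in CdSeNP, 139.7, 122 and 141 in Cd, 567, 539 and 549 in SeNP and 488, 418 and 485 in CK. Its groups stood apart in 4 steps, with CdSeNP lowest and SeNP highest. The authors' deposited tables give it -2.39 in CdSeNP against SeNP and -1.91 in Cd against CK on the log2 scale, with adjusted p-values listed as 0 and 1e-64 (DESeq2).

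The other LHCB1 genes spanned a wide range of levels. LOC111914739 (chromosome 4, 47276453 to 47277390, minus strand) had 365, 262 and 278 FPKM in CdSeNP, 416, 275 and 339 in Cd, 658, 783 and 775 in SeNP and 854, 589 and 682 in CK. Its CdSeNP and Cd libraries overlapped, and so did those of SeNP and CK. LOC111914738 (chromosome 4, 47259381 to 47260322, minus strand) had 12.1, 11 and 12.1 FPKM in CdSeNP, 16.9, 13.2 and 14.9 in Cd, 39.1, 41.6 and 48.1 in SeNP and 48.6, 44.4 and 49.8 in CK, about the same order at a far lower level. LOC128127153 on chromosome 7 was the least abundant gene of all, with 0.651, 0.772 and 0.755 FPKM in CdSeNP, 1.10, 1.07 and 1.31 in Cd, 3.45, 4.07 and 3.71 in SeNP and 2.06, 3.27 and 3.24 in CK, and kept the 4 groups apart with CdSeNP lowest and SeNP highest. In the authors' deposited tables these 3 genes had log2 fold changes of -1.32, -2.11 and -2.06 in CdSeNP against CK, and -1.16, -1.79 and -1.42 in Cd against CK (DESeq2, adjusted p of at most 5.1e-05). LOC111888053 (chromosome 5, 304763946 to 304764882, minus strand), listed in SeNP against Cd alone, had 884, 514 and 954 FPKM in Cd and 1043, 2407 and 1503 in SeNP. SeNP 2 stood far above its group and Cd 2 below its own, and the call (log2 fold change 1.17, standard error 0.43, adjusted p = 0.034 with DESeq2 in the authors' deposited table) ended without SeNP 2 or without Cd 2. Standard errors here and below were recovered from the deposited p.

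LHCB2 is the LHCII protein whose phosphorylation moves the antenna between the photosystems in Arabidopsis. The main LHCB2 gene, LOC111895560 (chromosome 9, 190018619 to 190019640, minus strand), had 142, 128 and 127 FPKM in CdSeNP, 169.9, 163 and 182 in Cd, 627, 583 and 539.8 in SeNP and 602, 523 and 587 in CK. CdSeNP lay below Cd without overlap, and SeNP and CK overlapped. Its log2 fold change was -2.18 in CdSeNP against SeNP, -2.20 in CdSeNP against CK and -1.85 in Cd against CK in the authors' deposited tables, with adjusted p-values of 4e-270, 6.5e-99 and 9.4e-78 (DESeq2). LOC111895558 (chromosome 9, 190106836 to 190107822, plus strand) had 12, 13.0 and 12.1 FPKM in CdSeNP, 14.2, 13.4 and 30.6 in Cd, 70.6, 59.0 and 65.2 in SeNP and 56.8, 40.3 and 48.0 in CK. Cd 3 stood at more than the level of the other Cd libraries combined. LOC111895565 (chromosome 9, 190143505 to 190144507, plus strand) had 67.7, 57.1 and 58.6 FPKM in CdSeNP, 28.2, 15.5 and 64.2 in Cd, 161, 284 and 279 in SeNP and 293, 84.6 and 75.4 in CK. It was the most uneven gene of the set: CK 1 stood far above CK 2 and CK 3, Cd 3 above Cd 1 and Cd 2, and SeNP 1 below SeNP 2 and SeNP 3. Its change in Cd against CK had a standard error of 0.84 around -2.19 (log2), with an adjusted p of 0.041 (DESeq2, the authors' deposited table). It was not listed in CdSeNP against CK, and an edgeR refit over the listed genes gave -1.39 (adjusted p = 0.032).

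LHCB3 has no such phosphorylation site in Arabidopsis. Its main gene, LOC111904852 (chromosome 7, 192095085 to 192096228, minus strand), had 356, 367 and 359 FPKM in CdSeNP, 470.3, 432 and 471 in Cd, 1137, 1105 and 1135 in SeNP and 1160.5, 1096 and 1151 in CK. The replicates lay close together, CdSeNP lay below Cd in every library, and SeNP and CK overlapped. The authors' deposited tables give -1.69 in CdSeNP against SeNP and -1.43 in Cd against CK on the log2 scale, with adjusted p-values listed as 0 and 1.3e-68 (DESeq2). The other LHCB3 gene, LOC128126365 on chromosome 5, had 1.68, 1.57 and 1.46 FPKM in CdSeNP, 2.04, 1.06 and 1.44 in Cd, 5.05, 5.75 and 7.20 in SeNP and 4.25, 4.18 and 5.02 in CK, with CdSeNP and Cd overlapping. Over the LHCII genes called, the median log2 fold change was -1.56 in Cd against CK, -2.06 in CdSeNP against CK and -2.001 in CdSeNP against SeNP.

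The minor antenna proteins LHCB4 (CP29), LHCB5 (CP26) and LHCB6 (CP24) link the LHCII trimers to the core of photosystem II. LHCB4, LOC111891628 (chromosome 9, 39522192 to 39523580, minus strand), had 921, 939 and 906 FPKM in CdSeNP, 939, 897 and 929 in Cd, 1971, 1879 and 1915 in SeNP and 1674, 1774 and 1859 in CK. LHCB5, LOC111915071 (chromosome 9, 99371720 to 99373307, minus strand), had 931, 926 and 878 FPKM in CdSeNP, 898, 858 and 909.6 in Cd, 1928, 1790.0 and 1886 in SeNP and 1759, 1705 and 1891 in CK. In both genes CdSeNP and Cd overlapped, and the libraries without cadmium stood far above them. The main LHCB6 gene, LOC111899517 (chromosome 5, 252382344 to 252383429, plus strand), had 314, 315 and 306 FPKM in CdSeNP, 416, 383 and 408 in Cd, 1000.1, 968 and 982 in SeNP and 872, 966 and 947 in CK, and here CdSeNP lay below Cd without overlap. The authors' deposited tables give LHCB4, LHCB5 and LHCB6 log2 fold changes of -1.10, -1.08 and -1.70 in CdSeNP against SeNP, and -1.06, -1.13 and -1.32 in Cd against CK (DESeq2, adjusted p of at most 2.2e-40). The calls of LHCB4 and LHCB5 in CdSeNP against CK ended without CK 3 and with library totals, and that of LHCB4 in Cd against CK with library totals. The other LHCB6 gene, LOC111899018, was not listed in either comparison with Cd and had 239.7, 240.2 and 234 FPKM in CdSeNP, 527, 518 and 517 in SeNP and 425, 515 and 464 in CK. It was lower by log2 values of -1.06 and -1.17 in CdSeNP against CK and against SeNP in the authors' deposited tables.

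LHCA1 to LHCA4 form the antenna belt of photosystem I. LHCA2, LOC111919349 (chromosome 3, 42543078 to 42544492, plus strand), was the most abundant antenna gene, with 1581, 1520.1 and 1476 FPKM in CdSeNP, 1585, 1458 and 1570.2 in Cd, 2955, 2815 and 2856 in SeNP and 2844, 2925 and 2956 in CK. LHCA1, LOC111877237 (chromosome 8, 26313204 to 26314521, minus strand), had 1062, 1000.1 and 977 FPKM in CdSeNP, 1088, 1035 and 1098 in Cd, 2442, 2361 and 2365 in SeNP and 2209.8, 2204 and 2479.8 in CK. LHCA3, LOC111914553 (chromosome 7, 179188004 to 179189362, minus strand), had 1143, 1143 and 1074 FPKM in CdSeNP, 1052, 979 and 1070.1 in Cd, 2459, 2288 and 2409.5 in SeNP and 2292, 2123 and 2367 in CK. For LHCA1 and LHCA2 the groups with cadmium overlapped each other, and for LHCA3 CdSeNP lay just above Cd. LHCA2 changed by close to the limit of the lists: its log2 fold change was -1.02 in CdSeNP against CK, -1.04 in Cd against CK and 1.00 in SeNP against Cd in the authors' deposited tables, and it was not listed in CdSeNP against SeNP, where an edgeR refit gave -0.96. Its calls ended with library totals, in CdSeNP against CK also without CdSeNP 3 or CK 3, and in SeNP against Cd in the edgeR and DESeq2 refits. LHCA1 and LHCA3 had -1.22 and -1.25 in Cd against CK (log2, the authors' deposited table), with adjusted p-values of 5.9e-42 and 2.7e-43 (DESeq2).

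LHCA4 was listed with 2 genes. LOC111877753 (chromosome 4, 201351944 to 201353173, minus strand) had 350.3, 347 and 348 FPKM in CdSeNP, 390.5, 386 and 388 in Cd, 842, 815 and 801 in SeNP and 664, 702 and 685 in CK. Each group was narrow and none overlapped another, with CdSeNP lowest, then Cd, CK and SeNP. It was called lower in CdSeNP against SeNP and against CK (-1.28 and -1.06, log2, in the authors' deposited tables, the second not past the fold limit with library totals). It was not listed in Cd against CK, where an edgeR refit gave -0.94 (adjusted p = 2.2e-05), just inside the fold limit. LOC111909729 (chromosome 5, 46574506 to 46575780, minus strand) had 200.2, 205 and 200.3 FPKM in CdSeNP, 228, 188 and 234 in Cd, 608, 538 and 539 in SeNP and 559.8, 513 and 668 in CK, with CdSeNP inside the range of Cd, and SeNP inside that of CK. Its log2 fold changes were -1.52 in CdSeNP against SeNP and -1.54 in Cd against CK in the authors' deposited tables (DESeq2, adjusted p of 3.6e-169 and 5.9e-27).

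Subunits of photosystem I included the most abundant transcripts of the set. PsaF, LOC111898563 (chromosome 4, 48803154 to 48804089, plus strand), which helps plastocyanin to dock on the lumen side, had 1332, 1469 and 1426 FPKM in CdSeNP, 1530.3, 1496 and 1550.0 in Cd, 3714, 3683 and 3715 in SeNP and 3386, 3343 and 3209.7 in CK. PsaN, LOC111904178 (chromosome 1, 12613136 to 12614096, minus strand), another lumen-side subunit, had 1391, 1432 and 1400.0 FPKM in CdSeNP, 1362, 1353 and 1386 in Cd, 3615, 3553 and 3464 in SeNP and 3328, 3022 and 3137 in CK. PsaL, LOC111918291 (chromosome 8, 154600074 to 154601106, minus strand), which lies where LHCII can attach to photosystem I, had 1650.4, 1519 and 1503 FPKM in CdSeNP, 1481, 1387 and 1478 in Cd, 3178, 3035 and 2999 in SeNP and 3218, 2979.9 and 3275 in CK. CdSeNP stood below Cd for PsaF and above it for PsaN and PsaL, each by a small step next to the distance to the libraries without cadmium. PsaD, LOC111898767 (chromosome 6, 149367629 to 149368432, minus strand), which binds ferredoxin on the stroma side, had 184, 172 and 173 FPKM in CdSeNP, 202, 173 and 201 in Cd, 424, 386 and 393 in SeNP and 399, 420.0 and 443 in CK. For PsaD the groups with cadmium overlapped, and so did those without it. The 4 genes had log2 fold changes of -1.44, -1.38, -1.02 and -1.23 in CdSeNP against SeNP, and -1.24, -1.33, -1.24 and -1.25 in Cd against CK, in the authors' deposited tables (DESeq2, adjusted p of at most 5.6e-35). The call of PsaL in CdSeNP against SeNP ended with library totals. PsaK, LOC111880682, was listed in SeNP against Cd alone, with 1739, 1706 and 1805 FPKM in Cd and 3424, 3268 and 3537 in SeNP and a log2 fold change of 1.06 in the authors' deposited table that did not pass the fold limit with library totals.

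PsbO, the manganese-stabilising protein of the oxygen-evolving complex, was the only listed subunit of photosystem II named by the rule. LOC111876697 (chromosome 2, 180493551 to 180494852, minus strand) had 116, 131 and 128 FPKM in CdSeNP, 286, 269 and 255 in SeNP and 209, 293 and 263 in CK, and was not listed in the comparisons with Cd. Its CdSeNP libraries lay below all others, and SeNP and CK overlapped. The authors' deposited tables give -1.16 in CdSeNP against SeNP and -1.11 in CdSeNP against CK on the log2 scale, with adjusted p-values of 5.4e-87 and 5e-17 (DESeq2).

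The 3 Rubisco small subunit genes lie near each other on chromosome 2 and differed in level. LOC111908248 (chromosome 2, 170234057 to 170235094, minus strand) had 143, 141 and 142 FPKM in Cd, 286, 271 and 259.9 in SeNP and 237, 289 and 273 in CK. Its Cd libraries had an SD of 0.642 FPKM, and its CK and SeNP libraries overlapped. LOC111908253 (chromosome 2, 170315043 to 170316063, plus strand) had 8.48, 7.69 and 7.38 FPKM in CdSeNP, 13.6, 11.9 and 11.9 in Cd, 22.3, 18.5 and 19.1 in SeNP and 26.7, 28.5 and 34.9 in CK, with 4 groups that did not overlap. LOC111908252 (chromosome 2, 170380020 to 170381038, plus strand) had 14.9, 20.9 and 12.2 FPKM in Cd and 22.4, 33.1 and 36.4 in CK. The authors' deposited tables list all 3 as lower in Cd against CK, with log2 fold changes of -1.02, -1.39 and -1.06 (DESeq2, adjusted p of at most 5.7e-05). The calls of LOC111908248 and LOC111908252 ended with library totals and without single libraries, CK 2 for LOC111908248 and Cd 3 or CK 3 for LOC111908252. Only LOC111908253 was listed in CdSeNP against CK and against SeNP, at -2.03 and -1.39.

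Sums over the genes with values in all libraries describe the listed genes of each complex, not the whole complex. These genes were listed for log2 changes over 1 between groups with and without cadmium. Low sums and read shares with cadmium therefore follow from the choice, and nothing is read from them. The 12 LHCII genes summed to 2120.3 ± 94.1 FPKM in CdSeNP, 2545 ± 208 in Cd, 6349.5 ± 24.4 in SeNP and 6159.7 ± 467 in CK (SD, n = 3 each). The 4 photosystem I genes summed to 4551 ± 45.4 FPKM in CdSeNP, 4533 ± 109 in Cd, 10719.5 ± 188 in SeNP and 10054 ± 284 in CK (SD, n = 3 each). The Cd sum was 41.3% of CK for LHCII, 45.1% for photosystem I, 48.7% for the 5 LHCI genes and 49.4% for the 3 minor antenna genes. The CdSeNP sum was 83.3% of Cd for LHCII, against 97.0% for the minor antenna, 99.0% for LHCI and 100.4% for photosystem I. The SeNP sum was between 103% and 107% of CK in these 4 complexes. In reads, the 25 genes took 1.28%, 1.25% and 1.22% of the CdSeNP libraries, 1.33%, 1.24% and 1.33% of Cd, 3.00%, 2.90% and 2.92% of SeNP and 2.83%, 2.71% and 2.88% of CK. These shares and sums are on the scale of library totals.

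**Figure D2:**
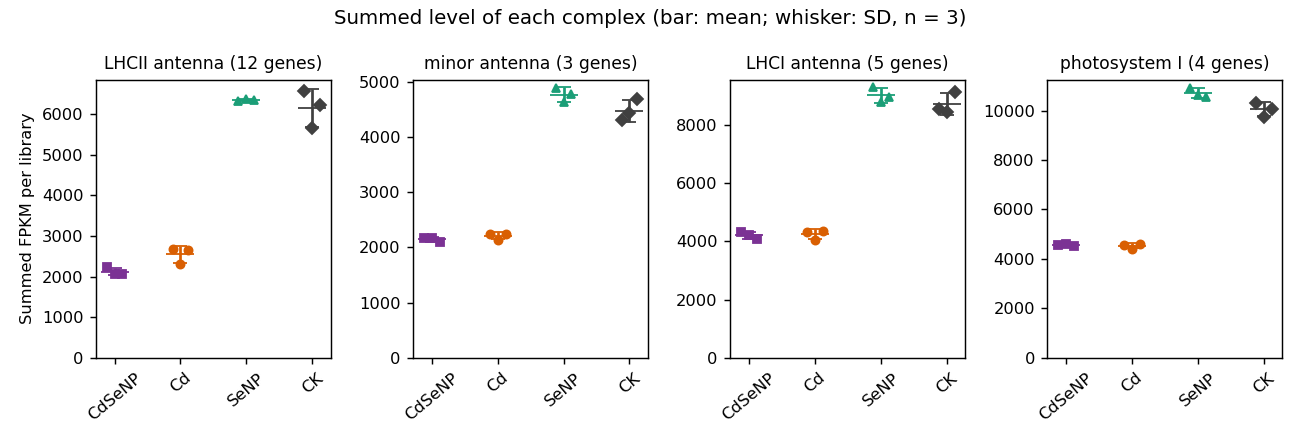
Summed FPKM per library of the genes of 4 complexes with values in all 12 libraries, with the mean (wide bar) and SD (whisker) of 3 libraries per group. Groups run from CdSeNP, Cd and SeNP to CK. The LHCII sum shows a step between CdSeNP (2120.3 FPKM) and Cd (2545 FPKM) that the sums of the other 3 complexes do not show. Single genes of those complexes differed: LHCB6 LOC111899517 stood at 79.8% of its Cd level, LHCA3 LOC111914553 at 112% and PsaL LOC111918291 at 111%.

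Within a library, the LHCII sum over the photosystem I sum was 0.489, 0.452 and 0.457 in CdSeNP, 0.586, 0.523 and 0.574 in Cd, 0.579, 0.598 and 0.601 in SeNP, and 0.637, 0.580 and 0.619 in CK. The CdSeNP libraries lay below all others, while the other groups overlapped or nearly so. This ratio does not depend on how libraries are scaled, and it is given without a test because the genes were chosen with results known. The LHCI sum over the photosystem I sum was 0.925 ± 0.024 in CdSeNP, 0.937 ± 0.017 in Cd, 0.842 ± 0.013 in SeNP and 0.869 ± 0.040 in CK (SD, n = 3 each).

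The comparison of CdSeNP with Cd asks what nanoparticles changed in leaves that also received cadmium. The authors called 0 of the 31 genes there, where 1.87% of 23096 genes tested were called (1.09% higher and 0.788% lower). With edgeR's quasi-likelihood test over all 12 libraries, on the 575 listed genes with values in each, 10 of the 25 photosynthesis genes passed an adjusted p of 0.05 with no fold limit and 12 an unadjusted p of 0.05, and 0 reached a 2-fold difference. DESeq2 on the same libraries of the 2 groups gave 6 and 7. Of the 10, 8 were lower in CdSeNP and 2 higher, and of the 575 genes 53.0% passed, 25.4% lower and 27.7% higher. These 575 genes were listed for changes in these libraries, so the shares describe a chosen set, and the share of photosynthesis genes lower was near theirs.

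By complex, 6 of 12 LHCII genes were lower in CdSeNP against Cd. LOC111914736 (LHCB1) stood at 74.5% of its Cd level (95% interval 66.9% to 83.0%, adjusted p = 0.0006 with edgeR), LOC111904852 (LHCB3) at 81.3% (74.8% to 88.3%, adjusted p = 0.00085) and LOC111895560 (LHCB2) at 79.5% (69.4% to 91.1%, adjusted p = 0.0086). The main LHCB6 gene, LOC111899517, stood at 79.8% (73.4% to 86.8%, adjusted p = 0.0006 with edgeR), and the Rubisco gene LOC111908253 at 64.9% (50.8% to 83.1%, adjusted p = 0.0068). These 5 stayed past the threshold in all 8 alternatives run (library totals, the replicate number as a block, and each of 6 libraries left out). LOC111921754, LOC111914737 and LOC128127153, all LHCB1, were lower by log2 values of -0.26, -0.17 and -0.62 and lost the call in at least 4 of the 8. The 2 that were higher, LHCA3 LOC111914553 at 112% and PsaL LOC111918291 at 111%, lost it with library totals and without single libraries. LHCB4 and LHCB5 stood at 103% (96.3% to 110.4%) and 106% (97.7% to 114%) of their Cd levels, PsaN at 106% (98.6% to 114%) and LHCA2 at 102% (95.8% to 109%, below its Cd level with library totals), none of them past the threshold. LOC111895565, whose replicates were uneven, stood at 175% with an interval of 79.6% to 387%.

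What nanoparticles did without cadmium is the question of SeNP against CK. The authors called 0 of the 31 genes, where 3.31% of 22656 genes tested were called. An edgeR refit of the 28 genes with values in both groups gave 3 genes at an adjusted p of 0.05 and 3 at an unadjusted p of 0.05, DESeq2 gave 1 and 1, and 0 reached a 2-fold difference. In the fit over all 4 groups 5 of 25 passed without a fold limit, 4 higher and 1 lower, against 67.1% of the 575 genes (22.1% higher and 45.0% lower). The Rubisco gene LOC111908253 was lower, at 65.0% of CK (95% interval 51.1% to 82.5%, adjusted p = 0.0036 with edgeR). LHCA4 LOC111877753 was higher, at 117% (109% to 127%, adjusted p = 0.0016). Both calls stayed in all 8 alternatives. PsaF LOC111898563 at 109%, PsaN LOC111904178 at 109.7% and LHCB1 LOC111921754 at 116% were also higher and lost the call in 1 to 4 of the 8.

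Whether the cadmium response itself differed with nanoparticles was tested as an interaction in the same fit, as the log2 response of CdSeNP over SeNP minus that of Cd over CK. A negative value means that the level stood lower with cadmium when nanoparticles were present than the sum of both responses gives. It passed in 10 of the 25 genes, 9 negative and 1 positive, where 73.9% of the 575 genes passed, 28.5% negative and 45.4% positive. Next to this chosen set, a smaller share of the photosynthesis genes passed, and the share that was negative was near. The negative ones include 6 of the 12 LHCII genes. They were LOC111914736 at -0.36 (95% interval -0.59 to -0.14, adjusted p = 0.0057 with edgeR), LOC111921754 at -0.48 (-0.75 to -0.21, adjusted p = 0.0038), LOC128127153 at -0.99 (-1.66 to -0.31), LOC111895558 at -0.998 (-1.81 to -0.19), LOC111895560 at -0.33 (-0.61 to -0.05) and LOC111904852 at -0.25 (-0.42 to -0.08). The others were LHCB6 LOC111899517 at -0.38 (-0.55 to -0.21, adjusted p = 0.00092), LHCA4 LOC111877753 at -0.34 (-0.50 to -0.19, adjusted p = 0.001) and PsaF LOC111898563 at -0.20 (-0.33 to -0.07). PsaL LOC111918291 was positive at 0.22 (0.04 to 0.40, adjusted p = 0.026), and failed in 7 of the 16 alternatives: with library totals (0.14), with DESeq2, and without CdSeNP 1, Cd 2, SeNP 3, CK 1 or CK 3. LOC111877753, LOC111899517, LOC111914736, LOC111921754 and LOC128127153 passed in all 16 alternatives. LOC111898563 and LOC111904852 failed with DESeq2 alone, LOC111895558 without CdSeNP 1, CdSeNP 3, Cd 3 or SeNP 1, and LOC111895560 in 7 of the 16. For the Rubisco gene LOC111908253 the interaction was -0.0005 (95% interval -0.33 to 0.33), with log2 differences of -0.62 in CdSeNP against Cd and -0.62 in SeNP against CK.

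**Figure D3:**
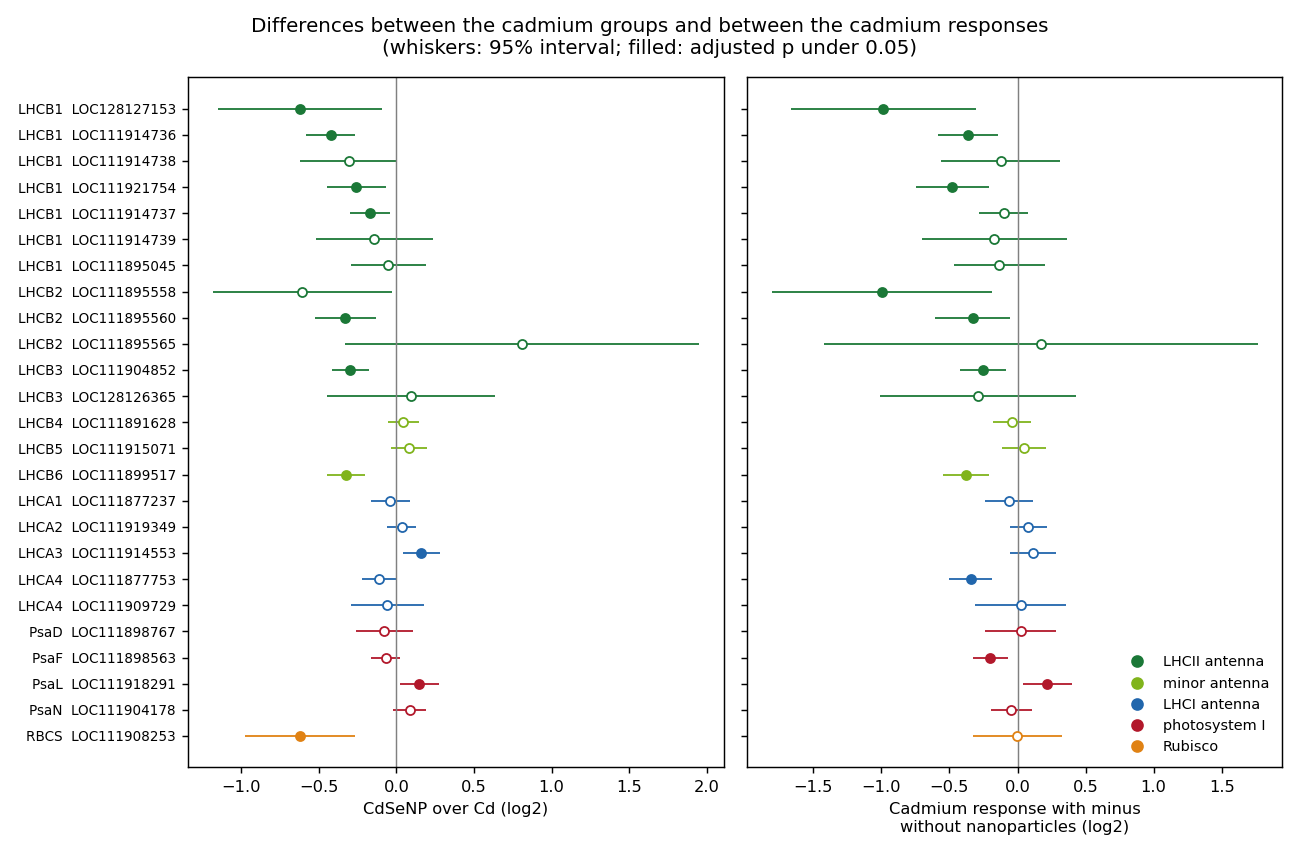
Left, the log2 fold change of CdSeNP over Cd, and right, the log2 cadmium response with minus without nanoparticles, for the 25 genes with values in all libraries, from edgeR's fit over 4 groups. Whiskers are 95% intervals, filled points have an adjusted p under 0.05 and colours mark complexes; most filled points are LHCII genes left of 0, and the 2 filled points right of 0 in the left panel are LHCA3 and PsaL, neither past the threshold with library totals.

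Across the 25 genes, the log2 response of CdSeNP over SeNP and that of Cd over CK, which share no library, had Pearson's r = 0.841 and Spearman's rho = 0.822 (0.743 and 0.799 without LOC111895045). The points share their reads' mapping and the selection of the tables, so these values describe the set and carry no test. The plot of both responses shows LHCB1, LHCB2 and LHCB3 genes spread over the range and the LHCI, photosystem I and most minor antenna genes closer together, between -0.94 and -1.55 in Cd against CK. The mean CK level, taken as log2 for r, and the Cd response had r = 0.334 and rho = 0.618 across the same genes. Listing needed a log2 change beyond 1 in some comparison, so these values too describe the set and carry no test.

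**Figure D4:**
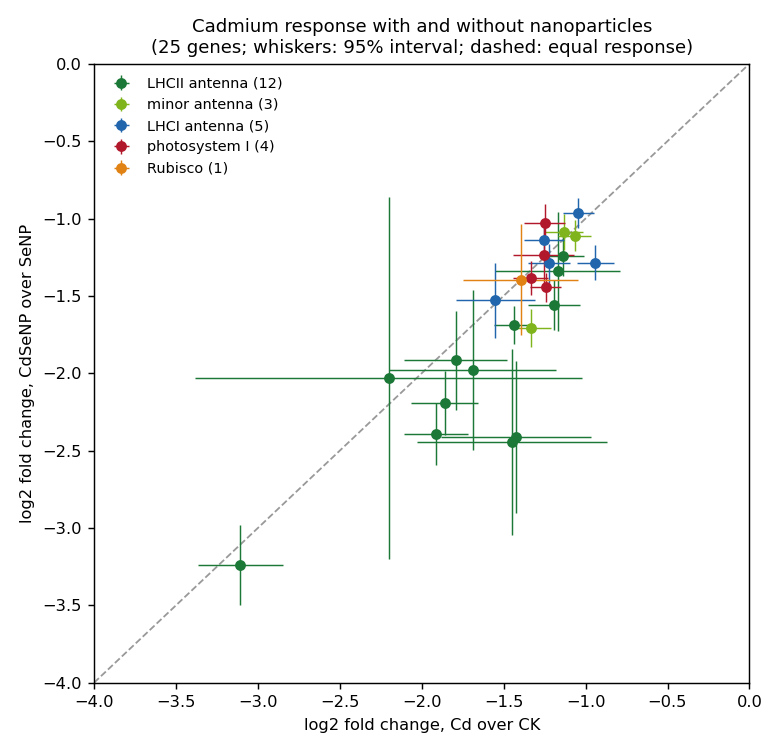
Log2 fold change of CdSeNP over SeNP (vertical) against Cd over CK (horizontal) for 25 genes, with 95% intervals from edgeR's fit over 4 groups. Colours mark complexes and the dashed line equal responses; 18 of 25 points lie below the line, the LHCII genes reach from -1.14 to -3.11 on the horizontal axis, and the other complexes stay within a narrower range.

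Several of the genes are copies that lie close together. The coordinates match the RefSeq annotation Lsat_Salinas_v11, and each span given here is a whole gene. On chromosome 4 the LHCB1 genes LOC111914736 to LOC111914739 lie within gaps of 13.1 to 95.1 kb, and their log2 fold changes in Cd against CK were -1.19, -1.13, -1.79 and -1.16 in the authors' deposited table. Differences in response between copies were not tested. On chromosome 9 the LHCB2 genes LOC111895558, LOC111895560 and LOC111895565 lie within 35.7 to 123.9 kb. Cd 3 was the highest Cd library for all 3, by a wide margin for LOC111895558 and LOC111895565 and a narrow one for LOC111895560. On chromosome 2 the Rubisco genes lie within 64.0 to 144.9 kb. How the authors assigned reads that fit several copies is not given in the sources used here, so values of single copies are uncertain.

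**Figure D5:**
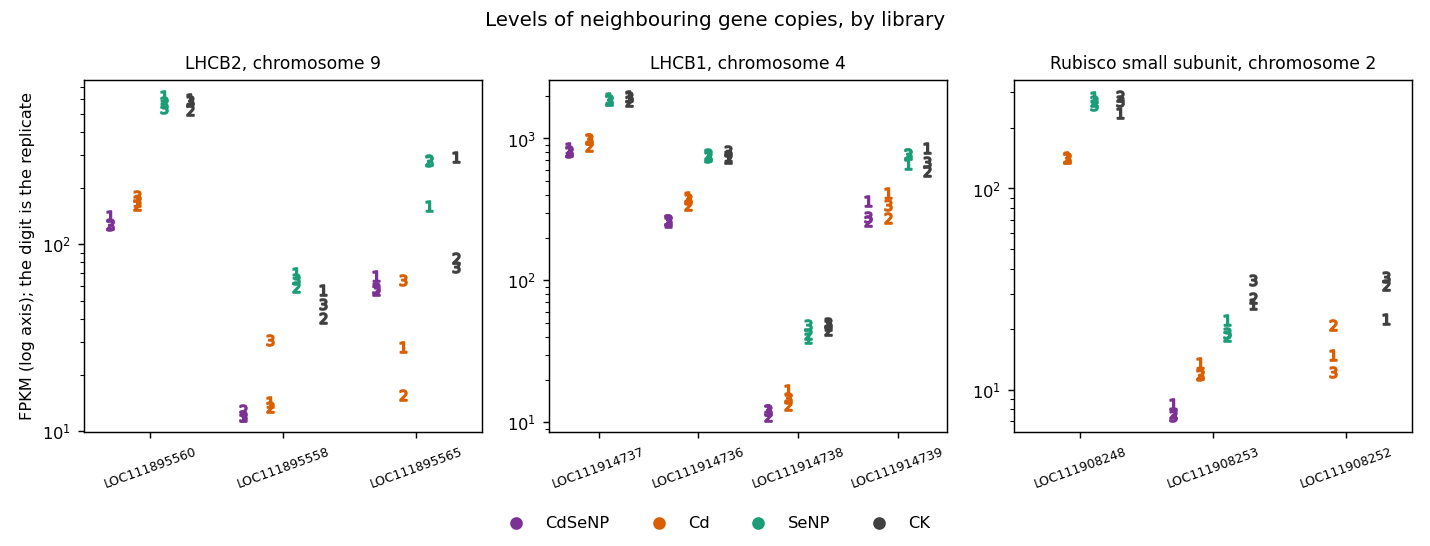
FPKM per library, on a log axis, of neighbouring copies of LHCB2, LHCB1 and the Rubisco small subunit, with digits for the replicate and colours for the group in the order CdSeNP, Cd, SeNP and CK. On the log axis the libraries of LOC111895565 spread over the widest range within a group, in Cd from 15.5 FPKM in Cd 2 to 64.2 in Cd 3. Its CK libraries were also spread, with CK 1 at 293 FPKM above CK 2 at 84.6 and CK 3 at 75.4.

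Other genes of photosynthesis were looked for by lists of words matched to the RefSeq names. Chlorophyll synthesis held 5 listed genes. In the authors' deposited tables the 3 called in Cd against CK were all lower, where 1.39% of all genes tested were called lower. So were the 3 called in CdSeNP against SeNP (0.625% of all genes) and the 2 called in CdSeNP against CK (1.33%). These genes were matched among called genes only, so nothing is read from the counts. Glutamyl-tRNA reductase 1 (LOC111877439), the first committed enzyme of the pathway, had 187, 191 and 192 FPKM in CdSeNP, 197, 189 and 198 in Cd, 467, 465 and 475 in SeNP and 412, 444 and 460.1 in CK. Geranylgeranyl diphosphate reductase (LOC111909735), which makes the phytol tail of chlorophyll, had 408, 452 and 442 FPKM in CdSeNP, 501, 472 and 508 in Cd, 1102, 1072 and 1052 in SeNP and 1022, 1213 and 1231 in CK. Both moved as the antenna genes did, with the cadmium groups low. Their log2 fold changes were -1.35 and -1.35 in CdSeNP against SeNP and -1.29 and -1.35 in Cd against CK in the authors' deposited tables. Glutamyl-tRNA reductase 2 (LOC111892988) differed: it had 11.1, 11 and 10.1 FPKM in CdSeNP, 4.90, 4.70 and 4.61 in Cd and 11.3, 6.80 and 13.6 in CK. Its Cd libraries lay below all others and its CdSeNP libraries at the CK level, with log2 fold changes of 1.22 in CdSeNP against Cd and -1.28 in Cd against CK in the authors' deposited tables. A further geranylgeranyl diphosphate reductase gene (LOC111877756) was listed only as lower in SeNP against CK (log2 -1.01), where 2.07% of all genes tested were called lower. The chelatase subunit ChlH (LOC111879365), which inserts magnesium, was listed in CdSeNP against SeNP alone, with 20.01, 20.8 and 21.3 FPKM in CdSeNP and 44.8, 44.4 and 42.2 in SeNP. Lists for the Calvin cycle beyond Rubisco and for photorespiration matched 0 of the 2264 listed genes. Electron transport outside the set held 1, a plastocyanin-like gene (LOC111903875) with 541, 532 and 519 FPKM in CdSeNP, 533, 546 and 544 in Cd and 1285, 1238 and 1211 in SeNP. Photoprotection held zeaxanthin epoxidase (LOC111917120), which turns zeaxanthin back into violaxanthin and was higher in Cd and in CdSeNP against CK (log2 1.33 and 1.27, the authors' deposited tables), with 0.727, 0.699 and 0.667 FPKM in CdSeNP, 0.836, 0.546 and 0.845 in Cd and 0.306, 0.162 and 0.348 in CK.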

How the data were processed

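RNA of whole lettuce leaves from 12 libraries was compared in 6 deposited tables, 1 per pair of groups, and groups and replicate numbers came from the labels. For every listed gene the authors deposited raw read counts (whole numbers, not normalised) and FPKM, per the file headers. The same deposited tables hold the authors' log2 fold changes (first-named group over the second), p-values and adjusted p-values. Tools named by the submitters' processing notes, with no role or order, are DESeq2 1.34.0, HISAT2 2.2.1, StringTie 2.2.1, Trimmomatic and fastp 0.23.0. Which program counted reads, whether it used strand, and on which genome build and annotation, was not given in the sources used here. A gene is listed when its adjusted p is under 0.05 and its log2 fold change beyond 1 in either direction, so the calls are the authors' and other genes were not analysed here.

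The planned fit across all genes therefore gave way to refits of the listed genes with edgeR 4.0.16 and DESeq2 1.42.0 (R 4.3.3). The quasi-likelihood fit over all 4 groups used the 575 genes with values in all 12 libraries, with Benjamini-Hochberg adjustment over them. The authors' size factors were recovered from counts and fold changes, and library totals (23.3 to 31.4 M reads) from counts and FPKM. The fits were tested on simulated data. Alternatives were library totals, DESeq2, other thresholds, the replicate number as a block and each library left out. Replicates are 3 a group, and intervals rest on the spread between them. The genes, the word lists (chlorophyll synthesis, Calvin cycle, electron transport, photorespiration, photoprotection, light signalling, iron balance and markers of dividing cells, epidermis, guard cells, vascular tissue and senescence) and the tests were chosen with earlier results of these data known. Named genes were the 2 most abundant of each complex, the 3 with the smallest adjusted p and the 3 with the largest change in each table, and those called in 3 or more tables or in opposite directions. LOC111899018 and LOC111880682 were added so that every gene is accounted for. Positions in the tables equal those of RefSeq's Lsat_Salinas_v11 for 2102 of 2102 matched genes. Sequences were not used here.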

Additional observations from a re-analysis of the deposited data

Results flagged for a closer look

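In 10 of the 25 genes with values in all libraries, the log2 response to cadmium differed between leaves with and without nanoparticles by the edgeR interaction test (CdSeNP over SeNP minus Cd over CK), as described above. With DESeq2 6 passed, and of all 575 genes in the edgeR fit 73.9% passed, 28.5% negative and 45.4% positive. Those genes were listed for changes in these libraries. Next to that chosen set, a smaller share of the photosynthesis genes passed, and the share that was negative was near. The difference was -0.36 for LOC111914736, -0.48 for LOC111921754 and -0.99 for LOC128127153 (all LHCB1), -0.998 for LOC111895558 and -0.33 for LOC111895560 (both LHCB2) and -0.25 for LOC111904852 (LHCB3). It was -0.38 for LOC111899517 (LHCB6), -0.34 for LOC111877753 (LHCA4), -0.20 for LOC111898563 (PsaF) and 0.22 for LOC111918291 (PsaL). Each of the 9 negative values stayed negative in all 16 alternatives, and the positive one stayed positive. For LOC111877753 the SeNP libraries lay above CK and the CdSeNP libraries below Cd, each without overlap, and the same held for LOC111899517, LOC111921754, LOC128127153, LOC111895558 and LOC111898563. The share of all listed genes in this order was not computed. In the 4-group edgeR fit, both differences passed an adjusted p of 0.05 for LOC111921754 alone. SeNP against CK did not pass for LOC111899517 (adjusted p = 0.43), LOC111895558 (0.21) or LOC128127153 (0.12). CdSeNP against Cd did not pass for LOC111877753 (0.082), LOC111895558 (0.072) or LOC111898563 (0.18). For LOC111914736, LOC111895560 and LOC111904852 SeNP and CK overlapped, as they did for LOC111918291, where CdSeNP lay above Cd. What lies behind these differences was not tested.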

How the results depend on the processing

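Of 105 gene calls in the 4 comparisons with called photosynthesis genes, 90 stayed past the limits in every alternative run, and no gene's value reversed under them. With the fold limit raised to a log2 value of 2, 2 genes were lower in Cd against CK, 7 in CdSeNP against CK and 6 in CdSeNP against SeNP, and 4 were higher in SeNP against Cd. Leaving out 1 library at a time, with edgeR refits, gave 25 to 26, 24 to 27, 26 to 26 and 25 to 27 genes in the same order. The genes higher in SeNP against CK numbered 0 to 1 and those higher in CdSeNP against Cd 0 to 1 under the same omissions. The 1 gene was LOC111895565, without CK 1 and without Cd 3. Whether replicate numbers pair libraries was not settled. Deviations from the group means had a median correlation of 0.1145 in 18 same-numbered pairs and -0.062 in 36 other pairs, with overlapping ranges. Of the same-numbered pairs 9 had a correlation over 0.1, and 9 of 12 libraries correlated best with their own number. With the replicate number as a block, 1 gene was higher in CdSeNP against Cd; other counts stayed within 1.5 times. The interaction passed in 6 genes with DESeq2 and in 8 to 11 without single libraries. In the fit without a fold limit, chosen after seeing the data, CdSeNP against Cd gave 5 to 8 genes lower and 0 to 2 higher without single libraries (5 lower without CdSeNP 2, CdSeNP 3 or Cd 3) and 0 higher with library totals. SeNP against CK gave 1 to 2 lower and 1 to 5 higher, with 2 lower and 2 higher without CK 2, and 2 and 1 higher without SeNP 1 and SeNP 2. An adjusted p limit of 0.01 kept each count within 1.5 times. A mean of at least 10 counts and a choice of core proteins removed none of the genes, so nothing is read from these settings. Because only called genes are listed, no setting could add genes outside the lists, and the share of photosynthesis genes that were expressed but not listed is unknown here.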

Other observations

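Some listed genes outside the word patterns carry a KEGG ortholog of the photosynthetic apparatus. A locus added by the authors with the LHCB2 ortholog had 3.10 ± 0.415 FPKM in CdSeNP, 3.42 ± 0.105 in Cd, 12 ± 1.29 in SeNP and 10.5 ± 0.818 in CK (SD, n = 3 each). Its log2 fold changes in the authors' deposited tables were -1.84 in CdSeNP against CK, -1.73 in Cd against CK and -1.99 in CdSeNP against SeNP. Another added locus, with the ortholog of PsaJ, had 2.77 ± 0.738 FPKM in Cd and 5.45 ± 1.66 in CK (log2 -1.10 in the authors' deposited table). The chloroplast gene LasaCp048, with the ortholog of the photosystem II core protein PsbB, had 2.26 ± 0.160 FPKM in Cd and 4.30 ± 0.373 in CK (log2 -1.05). LOC111910279 carries the ortholog of PsaH but is named a rop guanine nucleotide exchange factor, so its annotations disagree.

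The lists that follow were matched among called genes only, so nothing is read from their counts. Light signalling and clock words matched 4 listed genes. CONSTANS-LIKE 2 (LOC111876660) and CONSTANS-LIKE 5 (LOC111894909), of a family of zinc finger proteins in light and flowering responses, were lower in CdSeNP against CK (log2 -1.45 and -1.14) and in Cd against CK (-1.05 each) in the authors' deposited tables. CONSTANS-LIKE 10 (LOC111889802) and the clock gene APRR1 (LOC111912182) were higher in CdSeNP against CK (1.15 and 1.07). Of 17 listed iron balance genes, 8 were called higher and 5 lower in Cd against CK, where 3.47% of all genes tested were higher and 1.39% lower. In CdSeNP against SeNP 12 were higher and 3 lower (3.24% and 0.625% of all genes). Of 13 vascular markers, 7 were lower and 1 higher in CdSeNP against SeNP (0.625% and 3.24% of all genes). In CdSeNP against Cd 2 were lower (0.788% of all genes). In Cd against CK 2 were higher and 1 lower (3.47% and 1.39%), and 2 were higher in SeNP against Cd (0.67%). In SeNP against CK 3 were higher and 1 lower (1.24% and 2.07% of all genes). Of 3 senescence markers 1 was higher and 1 lower in CdSeNP against SeNP (3.24% and 0.625% of all genes), and 1 was higher in SeNP against Cd (0.67%). SENESCENCE-ASSOCIATED GENE 21 (LOC111911554) was higher in both Cd and SeNP against CK (log2 1.66 and 1.55 in the authors' deposited tables).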
